A study of Mus musculus with 12 samples.

Results

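Genes that mark retinal ganglion cells (RGCs) were followed here, Rbpms, Pou4f1, Pou4f2, Pou4f3, Isl1, Thy1, Sncg, Slc17a6, Nrn1 and Eomes, 10 of the 25655 genes in the deposited count tables, chosen by symbol as known RGC markers, with earlier results of these data known. RNA was taken from the whole retina of wild-type C57BL/6J mice (C57BL/6 and 8-10 weeks old in the sample labels, 8 weeks in their treatment protocol) 2 days after optic nerve crush (ONC), an injury that severs the axons of RGCs, and every group was injured. After the crush, eyes received one injection into the vitreous of PBS (control), fluvastatin, which is a statin that inhibits HMG-CoA reductase, matrix-bound nanovesicles (MBV) prepared from porcine urinary bladder, or MBV and fluvastatin together, with 3 samples in each group. Counts that name their library were used for 9 of the 12 samples, those with PBS, fluvastatin or MBV, and the combined treatment was not analysed here because its table heads 6 count columns without a library or group name. No uninjured retina is among the samples, so no value here measures a loss or gain relative to the intact retina.

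RGCs are the only neurons that carry visual signals from the eye to the brain, and crushing the optic nerve leads to the death of most of them over the following weeks, with a fall in many of their marker transcripts that precedes the loss of the cells. Their identity is set up by ATOH7, which acts upstream of the POU-domain factor POU4F2 and the LIM-homeodomain factor ISL1, and is maintained with POU4F1 and POU4F3, while EOMES is needed by the intrinsically photosensitive types. RBPMS, THY1, gamma-synuclein, VGLUT2 and neuritin are products of differentiated RGCs.

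Promoter sequences of members are shown first. The POU4F factors and ISL1, though not the T-box factor EOMES, are known to bind AT-rich homeodomain sites. Whether they act on these members was not tested. RefSeq windows from 250 bases before to 50 after a transcription start (build GRCm38.p6, whereas the counts were made on GRCm39) were found for 6 of the 10 members, in 7 windows. They were searched on both strands for ATTAAT, a core of sites bound by POU4F factors, for TAATTA, a general homeodomain core, and for CAGATG, an E-box of the kind bound by proneural factors (CATCTG on the other strand). ATTAAT and TAATTA each read the same on both strands and can overlap each other. In the following windows, which are those with a match and that of Isl1, the member that moved against the others, capitals mark the matches.
Sncg, chr14:34374620-34374919, minus strand: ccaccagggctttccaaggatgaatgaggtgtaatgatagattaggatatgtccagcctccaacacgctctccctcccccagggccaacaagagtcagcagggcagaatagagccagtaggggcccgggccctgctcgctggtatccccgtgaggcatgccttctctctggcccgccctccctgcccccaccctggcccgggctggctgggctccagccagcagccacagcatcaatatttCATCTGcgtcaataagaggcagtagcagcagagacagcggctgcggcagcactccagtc
Isl1, chr13:116309639-116309938, minus strand: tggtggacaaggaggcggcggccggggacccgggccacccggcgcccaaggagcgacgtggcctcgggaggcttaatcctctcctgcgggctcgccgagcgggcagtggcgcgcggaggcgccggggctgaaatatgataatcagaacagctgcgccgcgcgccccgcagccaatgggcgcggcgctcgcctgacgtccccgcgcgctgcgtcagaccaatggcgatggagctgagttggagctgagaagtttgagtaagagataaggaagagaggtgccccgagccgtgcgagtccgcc
Eomes, chr9:118477939-118478238, plus strand: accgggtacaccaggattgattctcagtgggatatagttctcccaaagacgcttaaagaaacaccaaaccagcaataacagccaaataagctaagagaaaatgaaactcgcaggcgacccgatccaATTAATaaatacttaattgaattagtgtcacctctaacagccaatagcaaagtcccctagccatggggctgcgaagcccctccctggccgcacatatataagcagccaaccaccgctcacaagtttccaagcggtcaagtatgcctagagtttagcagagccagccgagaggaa
Slc17a6, second window, chr7:51624387-51624686, plus strand: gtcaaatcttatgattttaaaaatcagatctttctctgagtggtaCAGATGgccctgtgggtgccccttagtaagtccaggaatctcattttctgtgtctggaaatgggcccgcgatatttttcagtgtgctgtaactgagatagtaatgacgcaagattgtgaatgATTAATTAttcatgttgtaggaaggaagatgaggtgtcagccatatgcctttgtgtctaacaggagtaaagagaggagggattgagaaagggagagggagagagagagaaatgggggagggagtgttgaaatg

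ATTAAT was present in 2 of the 7 windows, 124 bases before the start of Eomes and 83 bases before that of the second Slc17a6 window, and in 4.75% of all 32851 windows. TAATTA was found in 1 window, 81 bases before the second Slc17a6 start and overlapping ATTAAT there, against 5.29% of all windows. The E-box lay 9 bases before the start of Sncg and 205 bases before the second Slc17a6 start, and in 17.2% of all windows. None of these letters were in the windows of Pou4f1, Pou4f2 and Isl1 or in the first Slc17a6 window. A match is a description of the sequence only and was not tested for binding.

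Depth and the other facts of the series that bear on these genes were as follows. Counts on genes summed to 21349516 to 30992040 per library, and every member had at least 59 counts in every library, with the lowest in Pou4f3. All 10 members therefore passed the filter on low counts in each comparison. Of the markers of other retinal cells, given below, 8 of rods summed to 30304 to 46292 counts per 1000000 counts of a library (CPM). The 10 RGC genes summed to 331 to 485 CPM. Sums over different lists of markers do not give shares of cells. In such bulk samples, fewer cells of a type and less RNA per cell cannot be told apart. Library numbers 1 to 6 occur in 2 sets in the sample labels, one with PBS and the combined treatment and one with fluvastatin and MBV, so that in either comparison with PBS a difference between sets cannot be told apart from the treatment, whereas MBV and fluvastatin share a set. The study calls the samples of a group biological replicates, and whether a sample was a single retina or a pool is not given in the sources used here. Fluvastatin replicate 1 and MBV replicate 3 differed most from the other libraries of their groups, with a chi-square per degree of freedom over genes of 11.9 and 17.1 for the pairs with fluvastatin replicate 1 compared to 9.65 between the others, and of 13.6 and 21.4 for those with MBV replicate 3 compared to 5.24. Within the PBS group, replicate 3 stood apart too, with 5.70 and 9.36 for its pairs compared to 3.47 between the others. Values without these libraries are given below.

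Per length, the members spanned a wide range of levels. Taking CPM per kilobase of the exons annotated in GENCODE (means over the 9 libraries, SD between libraries), Thy1 led with 26.5 ± 4.34, followed by Slc17a6 with 17.4 ± 2.24, Nrn1 with 16.5 ± 2.30 and Isl1 with 13.9 ± 1.44. Sncg with 6.02 ± 1.26 and Pou4f1 with 3.75 ± 0.673 stood lower. The last places were held by Pou4f2 with 1.96 ± 0.454, Eomes with 1.84 ± 0.461, Rbpms with 1.23 ± 0.147 and Pou4f3 with 1.14 ± 0.202. Neighbours in this order overlapped between libraries except at 2 steps, from Isl1 down to Sncg and from Pou4f1 down to Pou4f2. The place of Rbpms rests on an annotated exon length of 16955 bases over all its transcripts, the longest among the members, and on one transcript its level per length would be higher.

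**Figure D1:**
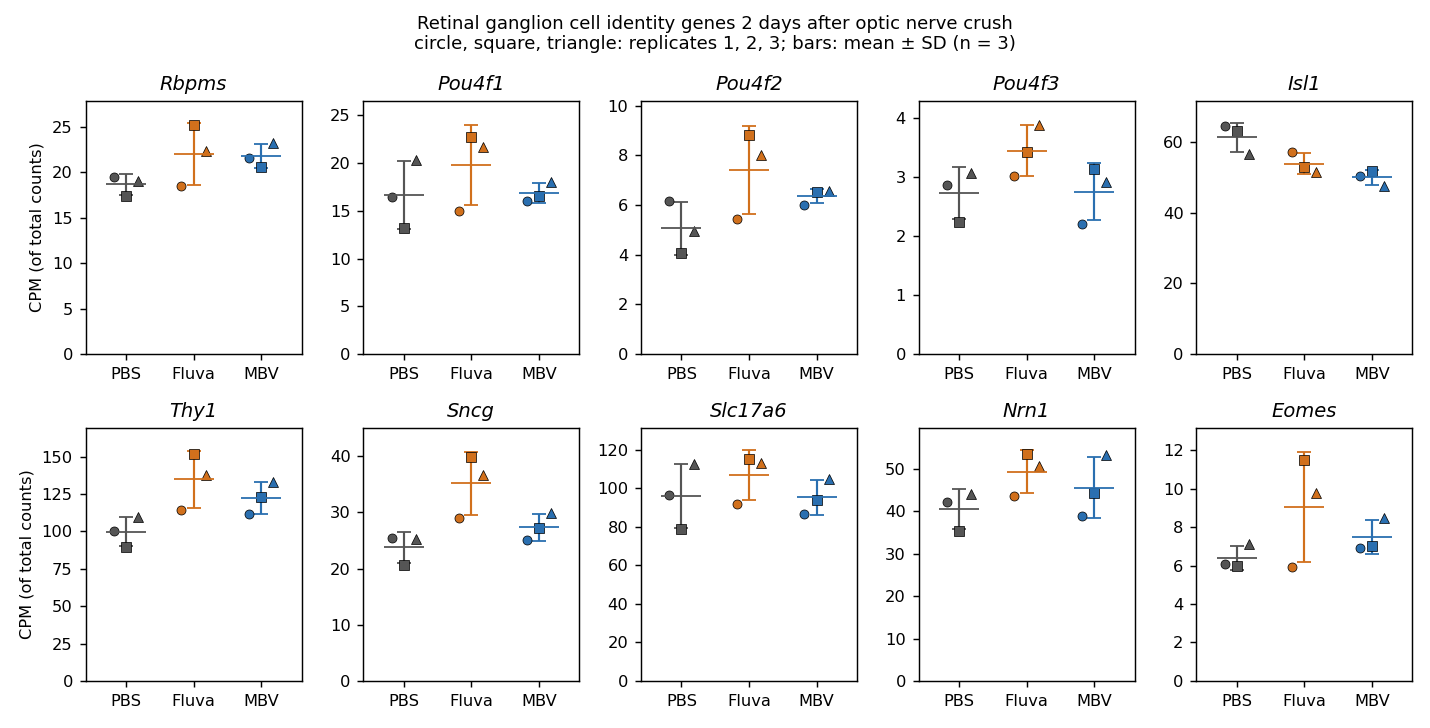
Level of each of the 10 members in CPM, counts per 1000000 of the library's total (vertical axes, from 0, a separate scale for each gene) in the PBS, fluvastatin (Fluva) and MBV libraries, with circles, squares and triangles for replicates 1, 2 and 3 and bars for the mean ± SD (n = 3). Fluvastatin replicate 1 lies lowest in its group for every gene except Isl1, and in Thy1 and Sncg all 3 fluvastatin libraries lie above all 3 PBS libraries.

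The first question was whether the transcription factors that define RGCs differed between treatments. Pou4f2 (BRN3B; chromosome 8 of GRCm39, 79159639 to 79163274) drives RGC differentiation. It had 6.16, 4.07 and 4.94 CPM in PBS replicates 1, 2 and 3, 5.43, 8.82 and 8.00 with fluvastatin and 6.02, 6.51 and 6.55 with MBV. Fluvastatin replicates 2 and 3 were above all PBS libraries, but replicate 1 fell inside their range. The log2 fold change compared to PBS was 0.56 (standard error 0.196, FDR 0.0735) with fluvastatin and 0.30 (standard error 0.157, FDR 0.206) with MBV. Here and below, the FDR is the Benjamini-Hochberg adjusted p-value over all genes from edgeR's quasi-likelihood test of the groups compared, and a gene was called at an FDR under 0.05.

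Pou4f1 (BRN3A; chromosome 14, 104699112 to 104705435), which is found in most RGCs, had 16.4, 13.2 and 20.4 CPM with PBS, 14.9, 22.7 and 21.7 with fluvastatin and 16.0, 16.5 and 18.04 with MBV. The PBS libraries alone covered all MBV libraries, and the log2 fold changes were 0.26 (standard error 0.170, FDR 0.333) with fluvastatin and -0.01 (standard error 0.137, FDR 0.961) with MBV. Pou4f3 (BRN3C; chromosome 18, 42527604 to 42530314), which marks a smaller share of RGCs, had 2.87, 2.24 and 3.08 CPM with PBS, 3.02, 3.43 and 3.89 with fluvastatin and 2.21, 3.14 and 2.92 with MBV. Counts were lower than for any other member, and the log2 fold changes of 0.34 (standard error 0.174, FDR 0.204) with fluvastatin and -0.02 (standard error 0.202, FDR 0.949) with MBV did not pass the test. Shares within the family overlapped between the groups. Per length, Pou4f1 made up 51.9% to 61.2% of the summed Pou4f level in each of the 9 libraries, Pou4f2 21.9% to 31.1% and Pou4f3 13.8% to 19.3%.

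Isl1 was the member that went the other way. It encodes a LIM-homeodomain factor (chromosome 13, 116434817 to 116446225) that RGCs share with ON bipolar cells and cholinergic amacrine cells. Its level was 64.4, 63.0 and 56.7 CPM with PBS, 57.2, 52.9 and 51.5 with fluvastatin and 50.4, 51.9 and 47.7 with MBV. All 3 MBV libraries were below all 3 PBS libraries, while the highest fluvastatin library overlapped the lowest PBS library. Compared to PBS, Isl1 fell by 0.33 on the log2 scale with MBV (1.26-fold lower, standard error 0.0607, FDR 0.00463), and it was called in each of 12 alternative fits, in which the log2 fold change ranged from -0.39 to -0.29. With fluvastatin the log2 fold change was -0.18 (standard error 0.0664, FDR 0.0791).

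Markers of the other cells that express Isl1 are given beside it. Of 9 bipolar markers other than Isl1, 2 were called lower and 0 higher with fluvastatin, and 1 lower and 0 higher with MBV. Over all genes 19.6% and 26.1% were called in either direction. With 1 library left out, 0 to 5 were called lower with fluvastatin, with 5 without PBS replicate 3, 3 without fluvastatin replicate 1 and 0 in the other fits. With MBV 0 to 3 were called lower, with 3 without PBS replicate 3, 2 without MBV replicate 2 and 0 without PBS replicate 2, and 2 higher without MBV replicate 3. Their summed level was 1491 to 1740 CPM with PBS, 1401 to 1619 with fluvastatin and 1385 to 1681 with MBV, so that the groups overlapped. The median log2 fold change of the 9 was -0.14 with fluvastatin and -0.09 with MBV. Of these 9, only 2 are named here, after their values were seen, and they went in different directions. Grm6, the glutamate receptor of ON bipolar cells, had log2 fold changes of 0.25 (FDR 0.0904) and 0.31 (FDR 0.0816). Vsx1, a factor of OFF and some ON bipolar types, fell by 0.42 (FDR 0.0256) and by 0.49 (FDR 0.0133). Among the markers of cholinergic amacrine cells, Chat had log2 fold changes of 0.33 (FDR 0.111) with fluvastatin and 0.10 (FDR 0.498) with MBV. The part of these cells in the level of Isl1 was not tested.

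Eomes (TBR2; chromosome 9, 118307280 to 118315200), the T-box factor of the photosensitive RGCs, had 6.07, 5.98 and 7.10 CPM with PBS, 5.92, 11.5 and 9.77 with fluvastatin and 6.92, 7.03 and 8.49 with MBV. Relative to its mean it varied more within the fluvastatin group than any other member, with replicate 1 below and replicate 2 above all others of the 9 libraries. The log2 fold changes compared to PBS were 0.51 (standard error 0.202, FDR 0.104) with fluvastatin and 0.20 (standard error 0.129, FDR 0.297) with MBV. Eomes and Thy1 are also expressed by T cells, and Eomes by natural killer cells. Of 12 markers of T and natural killer cells, 10 had any count in the fluvastatin and PBS libraries, and together they reached 1.52 to 2.53 CPM per library, with no difference called in either comparison with PBS. Cd3e, a defining part of the T cell receptor complex, was at 0 in 6 of the 9 libraries and at 0.0423 CPM or less in the others.

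Rbpms encodes an RNA-binding protein that is used to count RGCs (chromosome 8, 34272671 to 34419891). Its level was 19.5, 17.4 and 19.1 CPM with PBS, 18.5, 25.2 and 22.3 with fluvastatin and 21.5, 20.6 and 23.2 with MBV. All MBV libraries lay above all PBS libraries, but the log2 fold change of 0.19 (standard error 0.0773) had an FDR of 0.101 and did not pass in any of 12 alternative fits. With fluvastatin it was 0.24 (standard error 0.106, FDR 0.136). Rbpms overlaps Gtf2e2 on the other strand, and the strand setting of the authors' counting is not given in the sources used here, so reads of the 2 genes may not be told apart.

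The members called with fluvastatin were all products of differentiated RGCs. Sncg (chromosome 14, 34092231 to 34096746), which encodes gamma-synuclein, had 25.5, 20.6 and 25.2 CPM with PBS, 29.0, 39.8 and 36.7 with fluvastatin and 25.1, 27.2 and 29.8 with MBV. All fluvastatin libraries were above all PBS libraries, while the MBV libraries overlapped them. Sncg rose by 0.57 on the log2 scale with fluvastatin (1.49-fold, standard error 0.116, FDR 0.00759) and was called in 12 of 12 alternative fits, with log2 fold changes from 0.47 to 0.69. The value with MBV was 0.17 (standard error 0.0989, FDR 0.243).

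Thy1, a surface glycoprotein of RGCs and T cells (chromosome 9, 43954681 to 43959876), had 100.2, 89.8 and 109.5 CPM with PBS, 114.5, 151.8 and 137.9 with fluvastatin and 111.3, 123.0 and 132.9 with MBV. All libraries of both treatments were above all PBS libraries, though MBV replicate 1 exceeded PBS replicate 3 only narrowly. With fluvastatin Thy1 rose by 0.44 on the log2 scale (1.36-fold, standard error 0.0970, FDR 0.0112), and the FDR exceeded 0.05 in 1 of 12 alternatives, without fluvastatin replicate 2 (log2 fold change 0.34, FDR 0.0559). With MBV the log2 fold change was 0.26 (standard error 0.0861) and the FDR 0.0511. In the alternative fits of MBV against PBS, Thy1 was called in 6 of 12, with FDRs from 0.0180 to 0.161.

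Nrn1, which encodes neuritin, a membrane-anchored protein that promotes neurite growth (chromosome 13, 36909335 to 36919105), had 42.1, 35.3 and 44.2 CPM with PBS, 43.8, 53.5 and 50.8 with fluvastatin and 39.0, 44.5 and 53.4 with MBV. Fluvastatin replicate 1 lay between the PBS libraries. Its log2 fold change with fluvastatin was 0.29 (1.22-fold, standard error 0.0917) with an FDR of 0.0499, and it was called in 4 of 12 alternative fits, with FDRs from 0.00589 to 0.198. With MBV the log2 fold change was 0.14 (standard error 0.123, FDR 0.454). Nrn1 overlaps Fars2 on the other strand.

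Slc17a6 (chromosome 7, 51271754 to 51320867) encodes VGLUT2, the transporter that loads glutamate into the synaptic vesicles of RGCs. Its level was 96.7, 79.0 and 112.4 CPM with PBS, 91.8, 115.3 and 113.1 with fluvastatin and 86.8, 94.1 and 105.0 with MBV. The spread of the PBS libraries covered the MBV libraries and reached the lower part of the fluvastatin libraries. The log2 fold changes of 0.16 (standard error 0.116, FDR 0.383) and -0.04 (standard error 0.119, FDR 0.825) did not pass. Slc17a6 overlaps Gm45072 on the same strand, so its count is uncertain to that extent.

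Over the 10 members, 3 were called as higher and 0 as lower with fluvastatin compared to PBS. At the same threshold 19.6% of the 18818 genes tested were called in either direction, not far from the share of members called. All members called were higher, whereas 1761 genes were called as higher and 1926 as lower. The members' median log2 fold change was 0.32, compared to -0.01 over all genes tested, with 9 members above 0 and Isl1 below. Thy1 and Sncg had all fluvastatin libraries above all PBS libraries, a pattern shown by 16.7% of all genes, and no member had all of them below, as 19.8% of genes did. With MBV, 1 member (Isl1) was called as lower and 0 as higher, whereas 26.1% of the 18897 genes tested were called. The median log2 fold change of the members was 0.16, compared to 0.01 over all genes. Rbpms and Thy1 had no overlap with PBS from above, which held for 21.9% of genes, and Isl1 none from below, which held for 18.8%. Both comparisons share the PBS libraries.

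**Figure D2:**
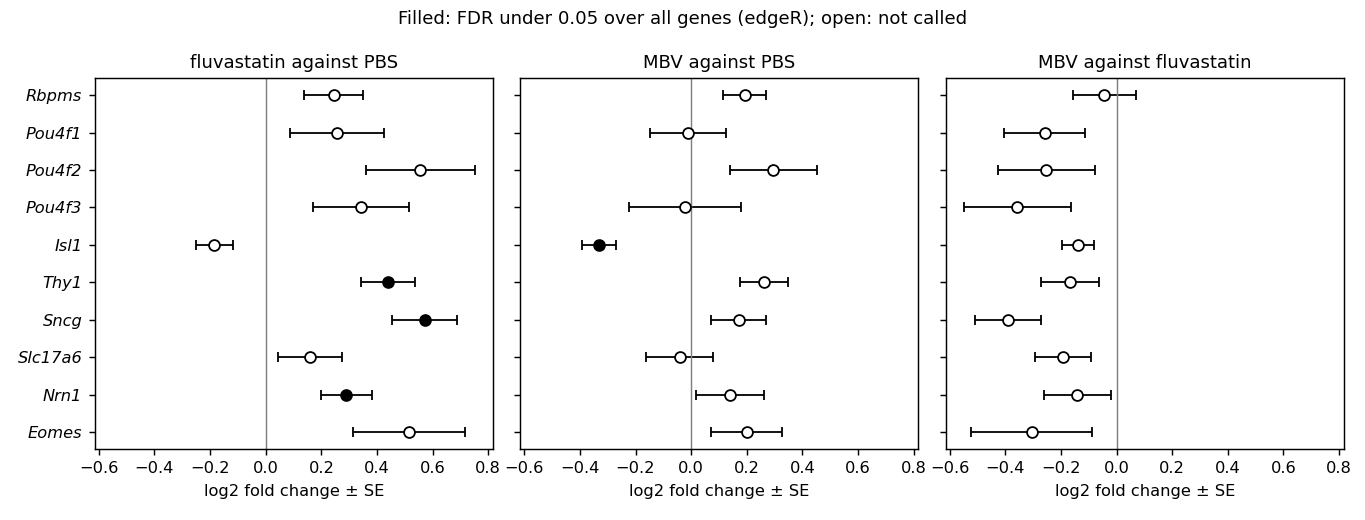
Log2 fold change of each member (points, with bars for the standard error, on a common horizontal axis) in fluvastatin against PBS, MBV against PBS and MBV against fluvastatin, from edgeR on 3 libraries a group. Filled points passed an FDR of 0.05 over all genes, which were Thy1, Sncg and Nrn1 above 0 with fluvastatin and Isl1 below 0 with MBV.

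MBV and fluvastatin were next compared directly, within one set of library numbers. All 10 members had a log2 fold change below 0 (MBV over fluvastatin), with a median of -0.22 compared to 0.01 over all genes, but 0 were called in edgeR, and all 10 overlapped between the groups. Across the genome 0.0588% of 18721 genes were called. In edgeR 2 members had an unadjusted p-value under 0.05, as did 10.7% of all genes tested. They were Sncg at -0.39 on the log2 scale (standard error 0.119, FDR 0.329) and Isl1 at -0.14 (standard error 0.0577, FDR 0.443). DESeq2 called 0 members as well. A rise of Sncg called with fluvastatin and not with MBV is thus not shown to differ between the treatments.

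The replicates of a group differed along one common direction. Leaving Isl1 aside, PBS replicate 2 was the lowest of its group for 9 of 9 members, fluvastatin replicate 1 for 9 of 9 and MBV replicate 1 for 8 of 9, whereas fluvastatin replicate 2 and MBV replicate 3 were the highest for 8 of 9 each and PBS replicate 3 for 6 of 9. The summed level of these 9 genes was 315, 268 and 346 CPM in PBS replicates 1, 2 and 3, 327, 432 and 404 CPM with fluvastatin and 315, 342 and 380 CPM with MBV. Fluvastatin replicates 2 and 3 exceeded the other 7 libraries, and fluvastatin replicate 1 lay within the PBS range. The 36 pairs among the 9 genes had a median Pearson correlation of 0.81 (0.47 to 0.96) over the 9 libraries in log2(CPM + 0.5), and of 0.82 after the group means were taken out. The correlations of Isl1 with the other members had a median of -0.57. These are descriptions over 9 libraries, whose points share depth, dissection and the makeup of the tissue.

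**Figure D3:**
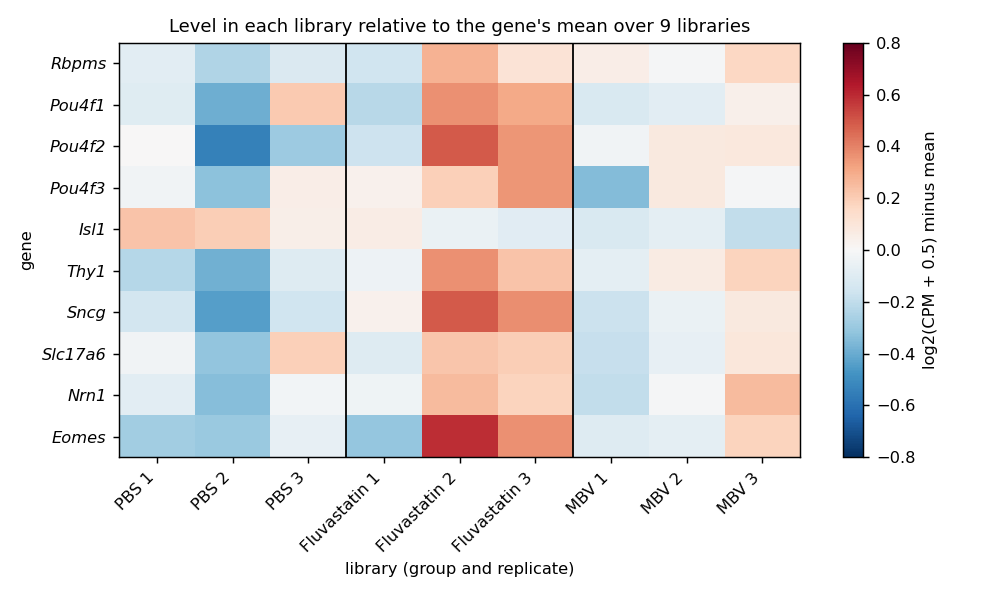
Log2(CPM + 0.5) of each member (rows) in each of the 9 libraries (columns) minus the gene's mean over them, from blue (below) to red (above). Fluvastatin replicates 2 and 3 are red and PBS replicate 2 is blue for all members except Isl1, whose colours run the other way.

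The number of members called with fluvastatin depended on which library was left out, most of all on fluvastatin replicate 1. Without fluvastatin replicate 1, 7 members were called as higher (Rbpms, Pou4f1, Pou4f2, Thy1, Sncg, Nrn1 and Eomes) and Isl1 as lower, 8 of 10 in all, compared to 23.5% of all genes tested in that fit. Pou4f2 then stood 0.74 above PBS on the log2 scale (standard error 0.159, FDR 0.00492) and Eomes 0.75 (standard error 0.122, FDR 0.000875). Without fluvastatin replicate 2, 1 member was called, Sncg, compared to 11.3% of all genes. Leaving out 1 PBS library gave 2 to 4 members. Of all genes, 9.26% were called without PBS replicate 1, 14.1% without PBS replicate 2 and 16.2% without PBS replicate 3. Fluvastatin replicate 1 also stood apart in Penk. This gene, which encodes a neuropeptide of an RGC subtype and of amacrine cells, was at 44.6, 43.2 and 47.4 CPM with PBS and at 44.7 CPM in fluvastatin replicate 1, but at 3.95 and 3.43 CPM in replicates 2 and 3. With MBV it was at 3.07, 2.81 and 18.4 CPM. In MBV against PBS, leaving out MBV replicate 3 took Nrn1 from 0.14 to -0.011 on the log2 scale, Eomes from 0.20 to 0.079, Sncg from 0.17 to 0.084 and Thy1 from 0.26 to 0.18, none of them called with or without it, while Isl1 kept its call at -0.32 (standard error 0.0669, FDR 0.00379). The part of these libraries' state in the members' values was not tested.

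**Figure D4:**
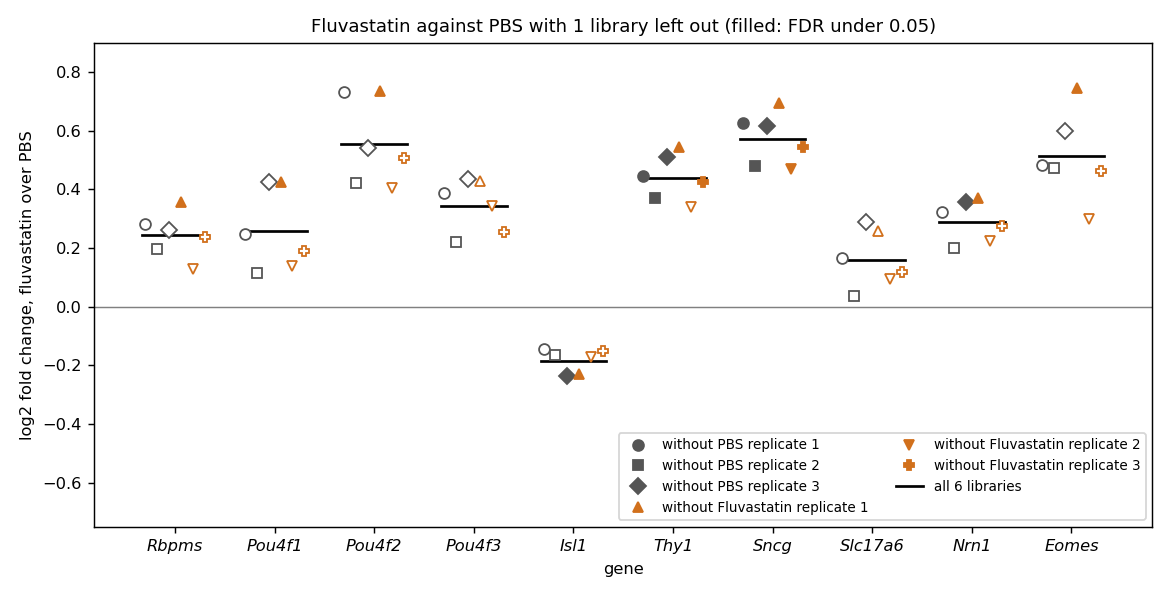
Log2 fold change of each member with fluvastatin against PBS (vertical axis) when each of the 6 libraries was left out in turn, with black lines for all 6 libraries and filled symbols for an FDR under 0.05. Without fluvastatin replicate 1, 8 members are filled, and without fluvastatin replicate 2 only Sncg is.

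Further genes of RGCs were examined in 3 lists. Among 20 regulators, 6 were called as higher and 1 as lower with fluvastatin (median log2 fold change 0.26), and 5 as higher and 1 as lower with MBV (median 0.06). Over all genes 19.6% and 26.1% were called, so that the 6 of 20 regulators called with MBV were close to the background. Sox4 and Sox12, factors of the SoxC group that RGC development needs, were higher with both treatments. Sox4 rose by 0.39 (FDR 0.00699) with fluvastatin and by 0.67 (FDR 0.00146) with MBV, and Sox12 by 0.32 (FDR 0.00903) and by 0.36 (FDR 0.00656). Irx3, an Iroquois homeobox gene, rose by 0.72 (FDR 0.0318) and by 0.71 (FDR 0.0288) compared to PBS libraries with 1.29 to 1.71 CPM. Ebf1, an early B-cell factor gene of postmitotic RGCs, and Satb1, a chromatin organizer, rose with MBV by 0.26 (FDR 0.0325) and by 0.18 (FDR 0.0430) and had log2 fold changes of 0.27 (FDR 0.0510) and 0.13 (FDR 0.158) with fluvastatin.

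Zic1, a zinc finger gene, was the regulator called as lower in both comparisons. It had 20.7, 16.1 and 24.7 CPM with PBS, 13.5, 6.68 and 6.01 with fluvastatin and 7.22, 5.81 and 12.2 with MBV, and fell by 1.22 (standard error 0.260, FDR 0.00935) and by 1.31 (standard error 0.251, FDR 0.00562). Its order among the libraries was that of Penk in part, with fluvastatin replicate 1 and MBV replicate 3 nearest to PBS. The most abundant regulators were Sox11, Satb1 and Ebf3. Sox11 had 56.0, 53.6 and 79.9 CPM with PBS and log2 fold changes of 0.11 (FDR 0.626) and -0.09 (FDR 0.704), and Ebf3 had 0.18 (FDR 0.0899) and 0.05 (FDR 0.479). Atoh7, which stands at the head of the pathway in the embryo, averaged 0.527 CPM.

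Of 25 markers of RGC subtypes, 3 were called as higher and 1 as lower with fluvastatin (median 0.04), and 3 as higher and 3 as lower with MBV (median 0.03). Their summed level was 605 to 621 CPM with PBS, 567 to 601 with fluvastatin and 572 to 589 with MBV, below PBS without overlap. Penk, whose levels are given above, is part of this sum. The 4 of 25 and 6 of 25 called were no larger shares than the 19.6% and 26.1% over all genes. Those that rose were Mmp17, Trarg1 and Col25a1 in both comparisons. Mmp17, a membrane-bound metalloproteinase gene that marks direction-selective RGCs, had 13.6, 14.2 and 14.6 CPM with PBS, 21.1, 26.6 and 24.1 with fluvastatin and 24.4, 29.6 and 28.6 with MBV. Every treated library was above every PBS library, and Mmp17 rose by 0.77 (standard error 0.0898, FDR 0.000916) and by 0.93 (standard error 0.0847, FDR 0.000446). Trarg1 rose by 0.70 (FDR 0.0154) and by 0.48 (FDR 0.0123), and Col25a1 by 0.42 (FDR 0.0132) and by 0.38 (FDR 0.0125).

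Igf1, which marks an alpha RGC type and is also made by other retinal cells, fell by 0.37 (FDR 0.00628) with fluvastatin and by 0.40 (FDR 0.00338) with MBV. Penk fell by 2.497 (standard error 0.542, FDR 0.00991) with MBV, and Cartpt, a marker of ON-OFF direction-selective RGCs, by 0.20 (FDR 0.0237). With fluvastatin these 2 genes had log2 fold changes of -1.38 (FDR 0.195) and 0.02 (FDR 0.883). Jam2 and Amigo2, the other abundant markers of this list, did not pass. Jam2 had log2 fold changes of -0.11 (FDR 0.383) and -0.17 (FDR 0.201), and Amigo2 of 0.10 (FDR 0.365) and 0.29 (FDR 0.117).

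Among 19 neuronal products of RGCs, which include cytoskeletal genes, 9 were called as higher and 0 as lower with fluvastatin (median 0.31), and with MBV 8 as higher and 1 as lower (median 0.24), beside 19.6% and 26.1% over all genes. Their summed level was 3285 to 3718 CPM with PBS, 4319 to 4721 with fluvastatin and 4437 to 4778 with MBV, without overlap with PBS. Map1b alone had 2281 to 2512 CPM with PBS, 3184 to 3325 with fluvastatin and 3236 to 3505 with MBV, most of each sum. The lack of overlap is therefore not shown for the sum of the other genes. Nefh, the heavy neurofilament, had 18.2, 17.3 and 22.6 CPM with PBS, 33.9, 44.4 and 42.8 with fluvastatin and 36.5, 39.3 and 38.2 with MBV, and rose by 1.07 (standard error 0.116, FDR 0.000690) and by 0.94 (standard error 0.0922, FDR 0.000531). Map1b, a microtubule-associated protein of growing axons, rose by 0.46 (FDR 0.000676) and by 0.46 (FDR 0.000773). L1cam, an axonal adhesion molecule, rose by 0.52 (FDR 0.00801) and by 0.42 (FDR 0.0181), Ina, which encodes alpha-internexin, by 0.34 (FDR 0.0277) and by 0.30 (FDR 0.00964), and Chrnb3, a nicotinic receptor subunit, by 0.43 (FDR 0.00655) and by 0.37 (FDR 0.00323). The light neurofilament Nefl had log2 fold changes of 0.15 (FDR 0.336) and -0.09 (FDR 0.455), and Scn1a, a sodium channel subunit, 0.33 (FDR 0.0854) and 0.24 (FDR 0.0364).

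These counts also moved with single libraries. Of the neuronal products, 18 of 19 were called as higher with fluvastatin without its replicate 1, 4 without its replicate 2 or 3 and 5 without PBS replicate 1 or 2, and 5 to 9 with MBV, with the fewest without PBS replicate 2. The regulators called as higher with fluvastatin numbered 10 without its replicate 1 and 1 without PBS replicate 1, and those with MBV 2 to 5. The subtype markers called with MBV came to 6 higher and 6 lower without MBV replicate 3. Between MBV and fluvastatin, 0 genes of the 3 lists were called in edgeR with all libraries. Many genes of these lists, among them Map1b and Sox4, are also expressed by other neurons of the retina.

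Markers of other cells were called as well, and their part in the members' values was not tested. Over all genes 19.6% were called with fluvastatin and 26.1% with MBV. Of 8 Müller glia markers, 7 were called as lower with fluvastatin and 4 with MBV, and their summed level was 3781 to 4417 CPM with PBS, 2041 to 3475 with fluvastatin and 1923 to 3466 with MBV. Fluvastatin replicate 1 and MBV replicate 3 were the libraries nearest to PBS. These lower calls ranged from 4 to 7 and from 3 to 6 with 1 library left out. Of 8 rod markers, 1 was called as higher and 2 as lower with fluvastatin, and 5 as lower with MBV. Their summed level was 43002 to 46292 CPM with PBS, 38021 to 40755 with fluvastatin and 30304 to 41330 with MBV, without overlap with PBS. With 1 library left out, 0 to 4 rod markers were called as lower with fluvastatin, with 0 without PBS replicate 1 or 2 and 4 without fluvastatin replicate 1. With MBV these were 1 without PBS replicate 1, PBS replicate 2 or MBV replicate 1, 2 without MBV replicate 2 and 7 without MBV replicate 3. Amacrine cells, which lie beside the RGCs, had 3 of 10 markers called as higher with fluvastatin and 1 with MBV, from 877 to 959 CPM with PBS, 913 to 1071 with fluvastatin and 978 to 1029 with MBV. The amacrine share called with fluvastatin, all as higher, was not far from that of all genes in either direction, and the share with MBV was below it. These amacrine counts ranged from 0 to 5 and from 0 to 1 with 1 library left out. Relative to this sum, the 9 members without Isl1 stood at 0.332, 0.305 and 0.361 with PBS, 0.358, 0.403 and 0.390 with fluvastatin and 0.322, 0.333 and 0.382 with MBV, with fluvastatin replicates 2 and 3 again above the other 7 libraries. Of 6 cone, 5 horizontal, 5 astrocyte and 8 microglia markers, at most 1 of each list was called in either comparison with PBS, and of 10 pigment epithelium markers 5 were called as lower in both and 2 with fluvastatin and 1 with MBV as higher. Lens genes summed to 60.0 to 164 CPM with MBV compared to 1.98 to 6.42 with PBS and 2.88 to 21.2 with fluvastatin, and the 8 monocyte markers to 33.5 CPM in the highest MBV library compared to 6.76 to 12.5 CPM with PBS.

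**Figure D5:**
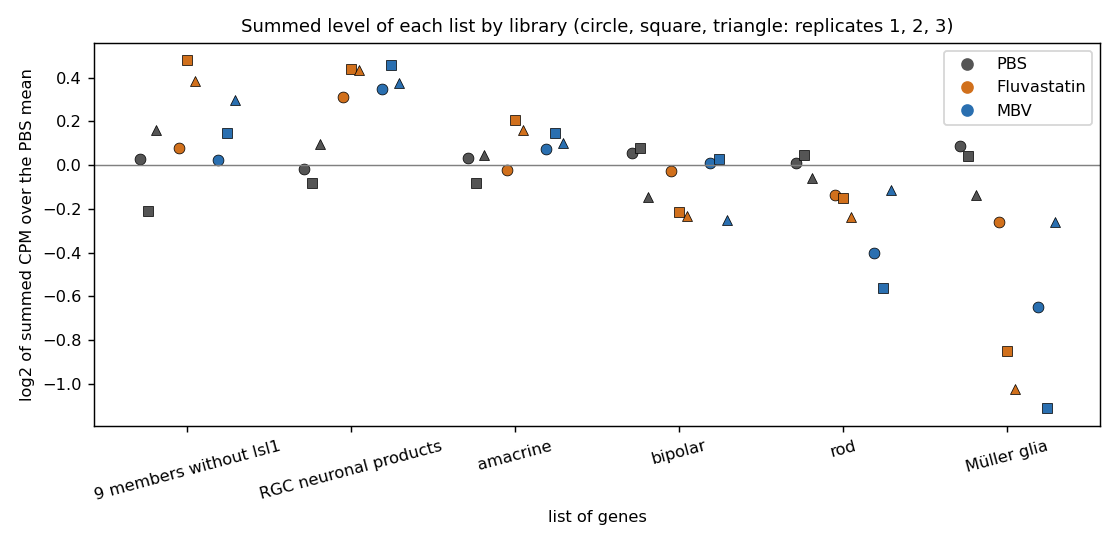
Summed level of each list of genes in each library relative to the mean of the 3 PBS libraries (vertical axis, log2 of summed CPM), with circles, squares and triangles for replicates 1, 2 and 3. The RGC neuronal products, a sum that is mostly Map1b, lie above PBS in all treated libraries and the Müller glia markers below. The 9 members without Isl1 overlap with PBS in fluvastatin replicate 1 and the lower MBV libraries.

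Last, the genes whose levels were most like those of the members were listed. Among 13149 other genes with a mean of at least 50 counts, the Pearson correlation with the mean level of the 10 members over the 9 libraries was highest for Rgs4 (0.979), a regulator of G protein signalling, Sult4a1 (0.978), a brain sulfotransferase, Prkar1b (0.977), a neuronal subunit of protein kinase A, and Rims1 (0.976), a protein of the presynaptic active zone. Pcdhb3 (0.967), Sparcl1 (0.966) and Cplx2 (0.962) were also among the 8 highest. They are given as a description over 9 libraries, chosen from many genes for their high correlation.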

How the data were processed

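Total RNA of whole retinas was sequenced by the authors, who used GRCm39 for alignment and made counts per gene with CLC Genomics Workbench 22.0.2. The authors deposited 4 tables of 25655 genes with raw counts, without normalization, beside their own comparison columns (fold changes and p-values), which were not used. Where tables share a library, its columns were the same (9 of 9). In the table of the combined treatment, 6 count columns name no library and were not used here, so that the combined treatment against PBS, the main effects and the contrast of the library sets were not run.

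CPM are counts per 1000000 of a library's total. Genes with at least 1 count in 1 of the 6 libraries entered TMM normalization and a test with edgeR 4.0.16 (quasi-likelihood, R 4.3.3) in a fit of 2 groups, with Benjamini-Hochberg adjustment over all genes. DESeq2 1.42.0, other scalings, filters and thresholds, a fit of all 9 libraries, and fits without each library were alternatives. The procedure was tested on simulated data. The TMM factors over the 9 libraries were 0.987 to 1.026. Other work used Python 3.11.15 and pandas 2.3.3.

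The members and lists were chosen with earlier results of these data known. All 10 members are named. In each list of RGC genes, those named are the called genes where at most 6 were called in a comparison, otherwise the 4 with the smallest FDR, and the 3 most abundant. Atoh7 and the genes of other cell types given with values were named after their values were seen. Likeness is the Pearson correlation of log2(CPM + 0.5) with the members' mean, for which the 8 highest genes were taken, and 1 of them is not reported here. Exon lengths are from GENCODE mouse release M39, and promoters from RefSeq. No 2 replicates of a group agreed within counting error. Counts carry no molecular identifiers, so the depth bounds counting error only.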

Additional observations from a re-analysis of the deposited data

How the results depend on the processing

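With a fold change of at least 2 added, 0 members and 220 genes remained with fluvastatin against PBS, 0 members and 369 genes with MBV against PBS, and 2 genes with MBV against fluvastatin. At an unadjusted p-value under 0.05, these were 7 members and 6118 genes (32.5%), 3 members and 7152 genes (37.8%), and 2 members and 2001 genes (10.7%). MBV against PBS gave 2 members with library size alone, with DESeq2's size factors, with DESeq2 and with the replicate block. In these fits 24.8%, 26.0%, 24.6% and 20.5% of genes were called. MBV against fluvastatin gave 5 genes with the study's filter, 122 with DESeq2, 38 in 1 fit of all 9 libraries and 0 with the replicate block. Correlations of deviations between samples of the same replicate number were -0.478 to 0.221. With 3 samples in a group these cannot settle whether the numbers pair the samples, and the main fits used no pairing. The replicate block gave 3 members (2 higher, 1 lower) and 3727 genes with fluvastatin and 3876 genes with MBV. Without each library in turn, members called were 1 to 8, 1 to 2 and 0, and genes called 1726 to 4402, 2711 to 5664 and 0 to 197, in fluvastatin against PBS, MBV against PBS and MBV against fluvastatin. The lowest numbers of genes against PBS came without PBS replicate 1, and the highest without fluvastatin replicate 1 and without MBV replicate 3. Directions reversed only in values that did not pass the test. Pou4f1 with MBV was 0.020 with library size alone and 0.0012 with the replicate block, and Pou4f3 0.0084 with library size alone. Over fits without 1 library, MBV against PBS ranged from -0.15 to 0.15 for Pou4f1, -0.14 to 0.12 for Pou4f3, -0.16 to 0.079 for Slc17a6, -0.011 to 0.25 for Nrn1 and -0.21 to 0.11 for Sox11, MBV against fluvastatin from -0.16 to 0.071 for Rbpms, and fluvastatin against PBS from -0.043 to 0.12 for Cartpt. The causes were not tested. Alternatives planned for the combined treatment, the main effects and the library set contrast were not run, because its libraries were not used.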
